A study of Homo sapiens with 42 samples.

Results

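K562 is an established human line from chronic myeloid leukaemia that carries the BCR-ABL1 kinase and keeps some features of early red cells. The data described here are 6 mRNA libraries of these cells, 3 after 18 h with 1 μM imatinib (IM 18h) and 3 after 18 h with 5 μM JTE-607 (JTE 18h), taken from the 42 libraries of the series by their sample titles. Both drugs were present for the same time, so the contrast asks how inhibiting the kinase and inhibiting the 3′ end nuclease differ once time in culture is held equal. The 3 untreated mRNA libraries (CTRL), for which no vehicle is stated, and the 3 + 3 libraries at 6 h are set beside them. The remaining mRNA libraries of the series were of cells given either drug for 1 h or KCl for 1 h or 3 h. They entered the joint fit, its low-count filter and the mean level over all libraries, and are not compared here. Each group had 3 biological replicates of 1 cell line. Libraries were made from poly(A) RNA, so that a transcript without a tail is poorly captured.

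BCR-ABL1 phosphorylates STAT5 and feeds the RAS-ERK cascade, and imatinib occupies its ATP site. In K562 cells, loss of kinase activity is known to open a path towards haemoglobin production. JTE-607 enters cells as an ester, is cleaved by the carboxylesterase CES1 into an acid, and then blocks CPSF73, the product of CPSF3, which cuts new transcripts ahead of poly(A) addition and also cuts histone transcripts, which end in a stem-loop and normally carry no tail. When cleavage fails, the polymerase can run past the end of a gene into whatever lies downstream.

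The 6 libraries held 16439848 to 18460064 counts, and 27 mRNA libraries were fitted together, with 18095 genes tested. A gene was called when its Benjamini-Hochberg adjusted p in edgeR's quasi-likelihood test was under 0.05 and its log2 fold change was beyond 0.6 in either direction. All fold changes below are imatinib over JTE-607 at 18 h unless another pair is named, and levels are CPM, counts scaled by TMM to the same library size. The error after ± is the standard error of the fit. All 12 K562 markers listed passed the low-count filter. The T and B cell markers summed to 1.68 to 2.696 CPM with imatinib, 7.56 to 10.1 CPM with JTE-607 and 5.07 to 6.30 CPM in CTRL, and MS4A1 was at 0 in all of them; 3 of the 8 were tested and all 3 were lower with imatinib. The part of such cells in the results below was not tested. EPCAM, an epithelial marker, stood at 82.2 to 104 CPM in the 6 libraries. In bulk RNA, fewer cells of a kind and less RNA per cell cannot be told apart.

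The promoters that bear on the main gene groups are shown first. CISH is an inhibitor of cytokine signalling that STAT5 switches on, and the letters TTCNNNGAA, a site STAT5 can bind, are in capitals. ALAS2 starts haem synthesis in red cells, EPB42 codes for protein 4.2 of the red cell membrane and KEL for the Kell blood group antigen; in these the letters AGATAA or their complement TTATCT, a site GATA factors can bind, are in capitals. Each line is the 250 bases before the start in RefSeq (GRCh38.p14), read 5′ to 3′ on the minus strand, at chr3:50611775-50612024, chrX:55030978-55031227, chr15:43221019-43221268 and chr7:142962364-142962613 in that order.
CISH: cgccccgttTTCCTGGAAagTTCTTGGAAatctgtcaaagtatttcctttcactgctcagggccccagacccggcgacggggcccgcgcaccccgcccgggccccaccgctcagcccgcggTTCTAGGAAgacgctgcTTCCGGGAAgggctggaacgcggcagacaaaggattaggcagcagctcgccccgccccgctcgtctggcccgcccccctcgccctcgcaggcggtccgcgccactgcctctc
ALAS2: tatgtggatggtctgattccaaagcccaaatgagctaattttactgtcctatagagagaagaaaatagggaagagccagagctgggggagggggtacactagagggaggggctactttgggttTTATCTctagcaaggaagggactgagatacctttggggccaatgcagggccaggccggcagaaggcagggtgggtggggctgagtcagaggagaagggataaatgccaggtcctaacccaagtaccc
EPB42: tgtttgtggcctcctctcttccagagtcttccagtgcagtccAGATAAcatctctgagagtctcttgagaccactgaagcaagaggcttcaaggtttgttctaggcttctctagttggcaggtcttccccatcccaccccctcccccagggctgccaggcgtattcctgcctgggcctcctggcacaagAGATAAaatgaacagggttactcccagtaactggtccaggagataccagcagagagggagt
KEL: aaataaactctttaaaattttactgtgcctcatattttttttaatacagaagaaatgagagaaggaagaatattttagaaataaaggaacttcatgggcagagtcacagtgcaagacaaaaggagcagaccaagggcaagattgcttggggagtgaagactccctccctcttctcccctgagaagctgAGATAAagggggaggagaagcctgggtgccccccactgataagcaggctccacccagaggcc

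The CISH promoter held 4 matches, beginning at bases -241, -230, -129 and -112 from the start. Over windows of 250 bases before to 50 after each start and on both strands, TTCNNNGAA lay in 6.31% of the 11224 promoters of tested genes in the table and in 1 of the 9 promoters of STAT5 target genes that it holds. AGATAA lay in 5.52% of the promoters of tested genes, in 6 of 14 of the red cell membrane list (42.9%) and in 11 of 48 of the erythroid lists below combined (22.9%). The other erythroid lists had 0 of 9 (iron), 2 of 12 (haem), 2 of 11 (transcription factors) and 1 of 2 (globins). Over all 27305 promoters of the table the shares were 7.88% for TTCNNNGAA and 10.5% for AGATAA. The promoters printed above were taken from genes with a match. A match describes letters and is no evidence of binding.

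The kinase pathway separated the drugs first. Genes that STAT5 switches on were lower with imatinib in 11 of the 12 tested, against 13.6% of all tested genes called lower and 16.7% called higher. Their median log2 fold change was -1.87, while the median of all tested genes was 0.04. Set beside CTRL, which shares the treated libraries with this contrast, the same list had 11 lower with imatinib (median -2.12) and 0 called in either direction with JTE-607 (median -0.17). Against CTRL, 30.5% of all tested genes were called in either direction with imatinib. By direction the shares were 13.2% lower with imatinib and 2.09% lower and 3.29% higher with JTE-607. The 975 genes called with JTE-607 against CTRL (5.39% of those tested) became 629 and 577 when JTE 18h replicates 1 and 3 were left out in turn, and 1575 in a replicate block with CTRL replicates 1 and 2 exchanged. For JTE-607 against CTRL, 2 of the 12 had an unadjusted p under 0.05 in edgeR, and DESeq2 called 0.

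SOCS3, a feedback inhibitor of JAK kinases, stood at 1.90, 1.95 and 2.59 CPM in the imatinib libraries, at 38.6, 30.9 and 37.0 CPM with JTE-607, and at 27.6, 34.0 and 25.5 CPM in CTRL. The JTE-607 and CTRL libraries overlapped, and all of them lay far above the imatinib libraries. SOCS3 was 16.5-fold lower with imatinib (log2 fold change -4.05 ± 0.30, edgeR adjusted p 9.87e-10).

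CISH (chromosome 3, 50606490 to 50611831) read 7.76, 8.37 and 6.77 CPM with imatinib, 42.6, 44.8 and 39.9 CPM with JTE-607, and 58.8, 68.3 and 34.95 CPM in CTRL. It was 5.55-fold lower with imatinib (log2 fold change -2.47 ± 0.32, edgeR adjusted p 2.38e-06), with JTE-607 inside the range of CTRL. SOCS2, another feedback inhibitor, fell by 2.05 on the log2 scale, PIM2, a survival kinase, by 2.31, and CCND2, a G1 cyclin, by 2.05, with edgeR adjusted p of 7.61e-07, 8.53e-10 and 3.34e-10. ID1, an inhibitor of differentiation factors, fell by 3.02 (edgeR adjusted p 3.81e-07). BCL2L1, the survival gene of the list, is described with its family.

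MYC showed a smaller difference. It read 83.8, 97.0 and 112 CPM with imatinib, 175, 199.6 and 179.9 CPM with JTE-607, and 277, 369 and 229.5 CPM in CTRL, so that no JTE-607 library reached the lowest CTRL library. The fall between the drugs was 0.92 on the log2 scale (error ± 0.28, edgeR adjusted p 0.0117), and the adjusted p was 0.0566 once IM 18h replicate 1 was left out. The edgeR adjusted p of JTE-607 against CTRL was 0.157.

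Targets and feedback inhibitors of the ERK cascade made the second arm, with 13 of 17 lower with imatinib, 1 higher, and a median of -1.95. Of all tested genes 13.6% were lower and 16.7% higher. EGR1, an immediate-early transcription factor, stood at 1.79, 1.69 and 1.38 CPM with imatinib, 34.1, 69.1 and 37.2 CPM with JTE-607, and 40.9, 159 and 109.8 CPM in CTRL. It was 28.8-fold lower (log2 fold change -4.85 ± 0.83, edgeR adjusted p 0.000108). The CTRL libraries spread widely and overlapped those with JTE-607, while the imatinib libraries lay far below both.

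SPRY4, which restrains RAS, stood at 1.63, 2.21 and 2.37 CPM with imatinib and at 40.3, 33.9 and 40.4 CPM with JTE-607, a fall of 4.20 on the log2 scale (error ± 0.66, edgeR adjusted p 4.31e-05). ETV4, a transcription factor stabilised by ERK signalling, stood at 5.27, 6.00 and 6.66 CPM with imatinib and 64.1, 59.1 and 62.5 CPM with JTE-607. It fell by 3.37 on the log2 scale (error ± 0.19, edgeR adjusted p 2.07e-11). The member called higher was DUSP1, a phosphatase of MAP kinases, with a log2 fold change of 1.21.

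The kinase and its partners themselves mostly did not pass the test. BCR stood between 138 and 147 CPM in all 6 libraries (log2 fold change -0.01 ± 0.13, edgeR adjusted p 0.947). ABL1 stood at 298, 292 and 318 CPM with imatinib and 311, 288 and 312 CPM with JTE-607 (log2 fold change -0.00 ± 0.14, edgeR adjusted p 0.989). Counts per gene do not separate the fusion transcript from the normal alleles. Of the 20 genes in the list of BCR-ABL1 partners, 3 were higher and 2 lower, with a median of -0.01, where 30.3% of all tested genes were called.

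JAK2, the cytokine receptor kinase, had the largest change of the called partners. It stood at 139, 135 and 134 CPM with imatinib, 45.9, 41.2 and 42.5 CPM with JTE-607, and 50.9, 66.4 and 68.7 CPM in CTRL. Imatinib lay above CTRL and JTE-607 below it in every library, and the difference between the drugs was 3.15-fold (log2 fold change 1.65 ± 0.16, edgeR adjusted p 2.68e-08). STAT5B was higher by 0.96 (edgeR adjusted p 0.000572) and the ERK gene MAPK3 by 0.88 (edgeR adjusted p 0.000108). The adaptor GAB2 and the ubiquitin ligase CBL fell by 0.64 and 0.78 (edgeR adjusted p 0.0118 and 0.00103).

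**Figure D1:**
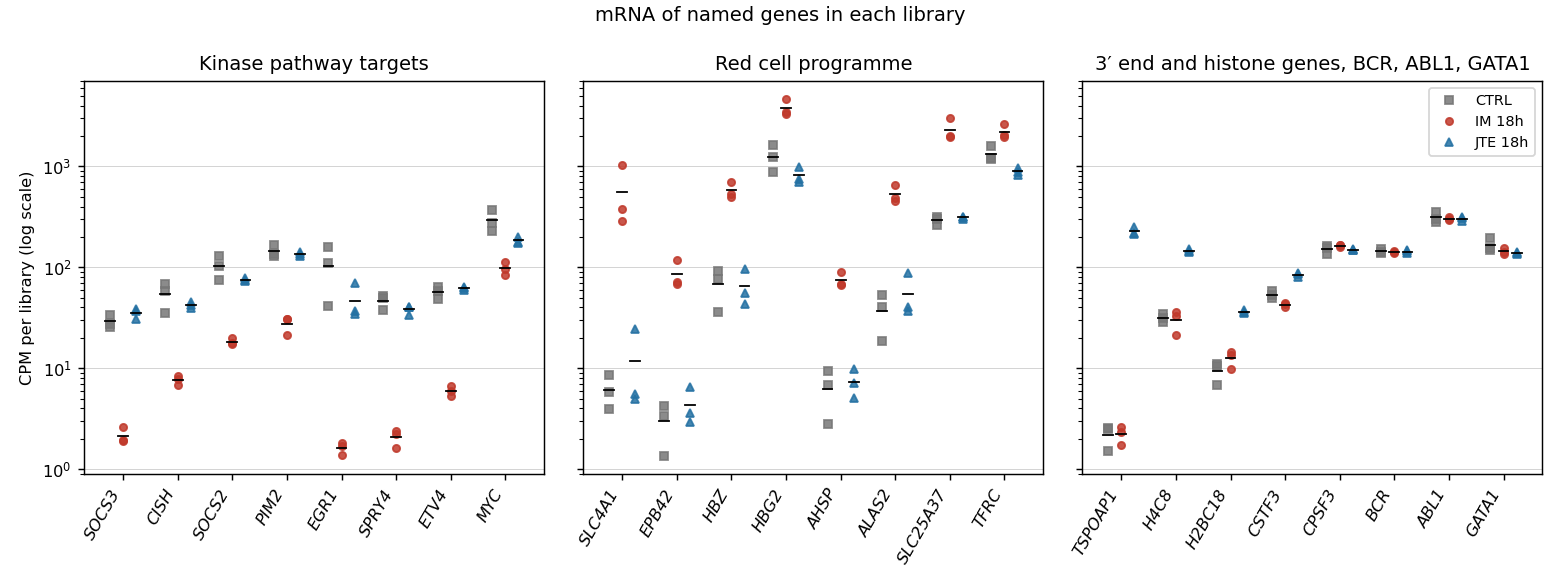
Each point is 1 library and each black line the mean of 3, with the level in CPM on a log axis for CTRL (squares), IM 18h (circles) and JTE 18h (triangles). SOCS3 with imatinib sits at 1.90 to 2.59 CPM against 30.9 to 38.6 CPM with JTE-607, TSPOAP1 reaches 214 to 250.3 CPM with JTE-607 only among these 3 groups, and BCR and ABL1 lie level.

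The red cell programme ran the other way. Of 71 tested genes in the lists for globins, haem, iron, the red cell membrane and erythroid transcription factors, 51 were higher with imatinib and 5 lower, with a median of 1.12; in 66 the libraries of the drugs did not overlap, as in 61.4% of all tested genes. Of all tested genes 16.7% were called higher and 13.6% lower. The globin genes and the globin chaperone AHSP were higher in 11 of 11 (median 2.43). The haem list had 11 of 14 higher and 1 lower (median 1.17), the iron list 7 of 12 higher and 0 lower (median 0.87), and the membrane list 17 of 20 higher and 1 lower (median 1.73). Against CTRL, the globin list had 11 higher with imatinib (median 1.96), where 17.2% of all tested genes were called higher, and 0 higher and 1 lower with JTE-607 (median -0.56).

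SLC4A1, the anion exchanger band 3 (chromosome 17, 44248385 to 44268141), had the largest rise that the naming rule allowed. It stood at 1028, 374 and 284 CPM with imatinib, 5.57, 24.7 and 4.97 CPM with JTE-607, and 8.54, 5.76 and 3.90 CPM in CTRL. IM 18h replicate 1 and JTE 18h replicate 2 stood well above the other replicates of their groups, and the lowest imatinib library still lay above the highest JTE-607 library. The mean ratio was 48.3-fold (log2 fold change 5.60 ± 1.21, edgeR adjusted p 0.00105).

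Those 2 libraries stood high across the programme. IM 18h replicate 1 was the highest of its group in 56 of the 71 erythroid genes and JTE 18h replicate 2 the highest of its group in 54. Globins took 1.39% of the counts in IM 18h replicate 1 against 0.981% and 0.964% in the other replicates, and 0.305% in JTE 18h replicate 2 against 0.193% and 0.214%. Leaving out each of the 6 libraries in turn left the globin list at 11 higher, the iron list at 7, the haem list at 10 to 11 and the membrane list at 16 to 18.

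EPB42 stood at 117, 69.0 and 72.0 CPM with imatinib and at 2.94, 6.49 and 3.61 CPM with JTE-607, a 19.9-fold difference (log2 fold change 4.32 ± 0.70, edgeR adjusted p 5.93e-05).

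The skeletal gene ADD2 was higher by 2.30 and KEL by 2.08 on the log2 scale. Their edgeR adjusted p were 2.5e-09 and 2.22e-07. The member that was lower was ACHE, the acetylcholinesterase that sits on red cells, with a log2 fold change of -0.94. Its call was lost without IM 18h replicate 3 (edgeR adjusted p 0.0541) and without JTE 18h replicate 2 (-0.60, edgeR adjusted p 0.116).

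Among the globins, the embryonic HBZ stood at 707, 502 and 532 CPM with imatinib, 43.1, 95.2 and 55.4 CPM with JTE-607, and 77.0, 92.7 and 35.7 CPM in CTRL. It was 8.99-fold higher (log2 fold change 3.17 ± 0.59, edgeR adjusted p 0.000258), and the JTE-607 libraries overlapped CTRL. HBE1, the embryonic beta-type chain, stood at 5522, 3791 and 3389 CPM with imatinib and 732, 1399 and 829 CPM with JTE-607, a log2 fold change of 2.10 (error ± 0.39, edgeR adjusted p 0.000241). The foetal copies HBG1 and HBG2 were each higher by 2.23, and HBA2 by 3.10; only uniquely mapped reads were counted, so these near-identical copies are uncertain one by one.

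Per length (RPKM, the CPM divided by the kilobases of exon), HBE1 had the highest mean level of the globins and HBB the lowest in both groups. HBE1 had a mean of 4563 RPKM with imatinib and 1063 RPKM with JTE-607, and HBB, the adult chain, 1.75 and 0.323 RPKM. HBD, the minor adult chain, stood at 42.7, 16.3 and 35.4 CPM with imatinib against 2.13, 1.61 and 2.30 CPM with JTE-607 (log2 fold change 3.96 ± 0.81, edgeR adjusted p 0.000588). The chaperone AHSP stood at 89.6, 66.0 and 68.7 CPM against 5.07, 9.76 and 7.06 CPM, a 10.3-fold difference.

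In haem synthesis, ALAS2 stood at 655, 482 and 452 CPM with imatinib, 40.8, 87.0 and 36.7 CPM with JTE-607, and 52.5, 40.2 and 18.8 CPM in CTRL. It was 9.67-fold higher (log2 fold change 3.27 ± 0.63, edgeR adjusted p 0.000321). Later enzymes of the pathway rose with it, ALAD by 2.33, PPOX by 2.44, FECH by 2.03 and CPOX by 1.89 on the log2 scale. The member that fell was ALAS1, the form used outside red cells, by 0.64. It missed the fold threshold under upper-quartile scaling (-0.60) and without IM 18h replicate 2 (-0.57).

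For iron, SLC25A37, the mitochondrial carrier mitoferrin, stood at 2985, 1999 and 1945 CPM with imatinib and at 302, 317 and 315 CPM with JTE-607, a 7.42-fold difference (log2 fold change 2.89 ± 0.30, edgeR adjusted p 1.67e-07). TFRC, the transferrin receptor, stood at 2615, 1965 and 2026 CPM with imatinib, 824, 973 and 885 CPM with JTE-607, and 1223, 1170.0 and 1604 CPM in CTRL. Here the drugs lay on opposite sides of CTRL; the imatinib rise passed the test (log2 fold change 0.72) and the JTE-607 value did not (log2 fold change -0.58, edgeR adjusted p 0.055). The storage chains FTH1 and FTL were not called, at 0.40 and -0.09.

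The transcription factors of the lineage were mixed, with 5 of 14 higher, 3 lower and a median of 0.55. Of all tested genes 16.7% were higher and 13.6% lower. Without JTE 18h replicate 1, 3 were higher, and without the other libraries 4 to 6. GATA1, the master factor of red cells, stood at 140.4, 135 and 156 CPM with imatinib and 136, 143 and 139.5 CPM with JTE-607 (log2 fold change 0.04 ± 0.15, edgeR adjusted p 0.836). TAL1 and LMO2, which bind with it, were higher by 1.18 and 1.54 (edgeR adjusted p 5.92e-07 and 0.00048). GFI1B was higher by 1.02 (edgeR adjusted p 0.0319), a call lost without IM 18h replicate 1 or 3 or any JTE 18h library, with edgeR adjusted p from 0.0568 to 0.120.

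The 3 factors that were lower are known from progenitors and other blood cells. GATA2, of progenitors, stood at 33.9, 48.1 and 47.5 CPM with imatinib, 145, 164 and 150.2 CPM with JTE-607, and 194, 173 and 204 CPM in CTRL. Its fall of 1.83 between the drugs (error ± 0.17, edgeR adjusted p 2.03e-08) came with no overlap of any group. MYB fell by 1.18 (edgeR adjusted p 0.000417) and SPI1, the myeloid factor PU.1, by 2.39 (edgeR adjusted p 0.00365). In the granulocyte and monocyte list 3 of 8 were lower and 0 higher, beside 13.6% and 16.7% of all tested genes. CD33 stood at 2.28, 5.00 and 4.402 CPM with imatinib and 33.2, 25.1 and 28.7 CPM with JTE-607 (log2 fold change -2.89, edgeR adjusted p 2.04e-06).

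In the megakaryocyte list 2 of 7 were higher and 1 lower, beside 16.7% and 13.6% of all tested genes. The lower call was lost without any 1 of the imatinib libraries or JTE 18h replicate 1 or 3, which left 0 lower. TUBB1, the tubulin of platelets, stood at 158, 119 and 124 CPM with imatinib and 7.30, 11.3 and 7.79 CPM with JTE-607 (log2 fold change 3.93 ± 0.37, edgeR adjusted p 4.99e-08). The median of this list, -0.18, turned positive when only the 2 groups were fitted (0.27), without IM 18h replicate 2 (0.0067) and without JTE 18h replicate 1 (0.14).

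Other genes with the largest rises were CA1, TNS1, ESPN, SNX22, LMOD1 and SGMS1-AS1. CA1, the carbonic anhydrase of red cells, stood at 347, 304 and 236 CPM with imatinib and 18.1, 33.0 and 18.8 CPM with JTE-607, and was 12.7-fold higher (edgeR adjusted p 3.44e-05). TNS1, a cytoskeletal linker, was 16.99-fold higher and the actin bundler ESPN 30.6-fold (edgeR adjusted p 2.83e-06 and 8.96e-05). SNX22 and SGMS1-AS1 were higher by 3.79 and 3.77 on the log2 scale and LMOD1 by 3.53. SGMS1-AS1 is an antisense gene, and counting did not use strand, so its reads cannot be told from those of its partner.

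Among the largest falls, IL10RA, a cytokine receptor chain, stood at 0.489, 0.579 and 0.440 CPM with imatinib, 20.3, 25.5 and 17.4 CPM with JTE-607, and 11.4, 10.7 and 7.58 CPM in CTRL. The drugs lay on opposite sides of CTRL, and both passed the test against it (log2 fold change -4.28 with imatinib and 1.09 with JTE-607, edgeR adjusted p 1.63e-09 and 0.00394). The difference between the drugs was 41.4-fold. TMEM273 had the same order, at 1.25, 2.53 and 3.25 CPM with imatinib and 63.5, 54.8 and 68.5 CPM with JTE-607 (log2 fold change -4.73, edgeR adjusted p 3.9e-11), and passed against CTRL with both drugs (log2 fold change -3.85 and 0.89).

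APOL4, an apolipoprotein L gene, fell by 5.56, CFAP161, a cilium gene, by 4.93 and IL16, a cytokine, by 4.30 on the log2 scale (edgeR adjusted p 3.47e-10, 2.02e-07 and 3.49e-06). None of these 3 passed against CTRL with JTE-607, where their log2 fold changes were 0.54, 0.97 and 0.86.

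Genes of ribosome assembly were lower with imatinib. Of 30 that act in the nucleolus, 24 were lower and 0 higher (median -1.09), beside 13.6% and 16.7% of all tested genes. Against CTRL, 28 were lower with imatinib and 1 with JTE-607 (medians -1.39 and -0.32), beside 13.2% and 2.09% of all tested genes. NOP16 stood at 14.99, 22.8 and 23.1 CPM with imatinib, 62.2, 69.9 and 63.3 CPM with JTE-607, and 89.8, 67.4 and 89.8 CPM in CTRL. It fell by 1.68 between the drugs (error ± 0.20, edgeR adjusted p 8.33e-07). The methyltransferase NOP2, the assembly factor RRP12 and the U3 particle protein RRP9 fell by 1.33, 1.39 and 1.505. PPAN fell by 1.92, and its readthrough partner shares exons, so its counts miss ambiguous reads.

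Glucose genes split by member, with 8 of 20 lower, 3 higher and a median of -0.47, beside 13.6% of all tested genes lower and 16.7% higher. The glucose transporter SLC2A3 stood at 7.17, 5.42 and 7.54 CPM with imatinib, 145, 107 and 149 CPM with JTE-607, and 122, 194 and 138 CPM in CTRL (log2 fold change -4.32 ± 0.51, edgeR adjusted p 1.31e-06). SLC2A1, the transporter of red cells, went the other way, at 457, 367 and 349 CPM against 161, 222 and 168 CPM (log2 fold change 1.09 ± 0.18, edgeR adjusted p 3.86e-05). Hexokinase HK2 fell by 2.20, pyruvate kinase PKM by 2.24 and lactate dehydrogenase LDHA by 1.30 (edgeR adjusted p 5.46e-07, 2.37e-09 and 1.34e-05). PKM with JTE-607, at 617, 537 and 596 CPM, lay above all 3 CTRL libraries, the highest of which held 513 CPM, but did not pass the test there (log2 fold change 0.26).

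Of 18 heat shock genes 8 were lower and 0 higher (median -0.81), beside 13.6% and 16.7% of all tested genes. HSPA5 of the endoplasmic reticulum stood at 248.7, 244 and 276 CPM with imatinib and 529, 528 and 536 CPM with JTE-607 (log2 fold change -1.05 ± 0.12, edgeR adjusted p 2.77e-07). The mitochondrial HSPA9 fell by 0.96 and the exchange factor HSPH1 by 1.13. HSPA6, the strictly inducible member, held 245 counts over the JTE-607 libraries and 7 over the imatinib libraries, a ratio of 34.96 (95% counting interval 16.7 to 87.9).

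**Figure D2:**
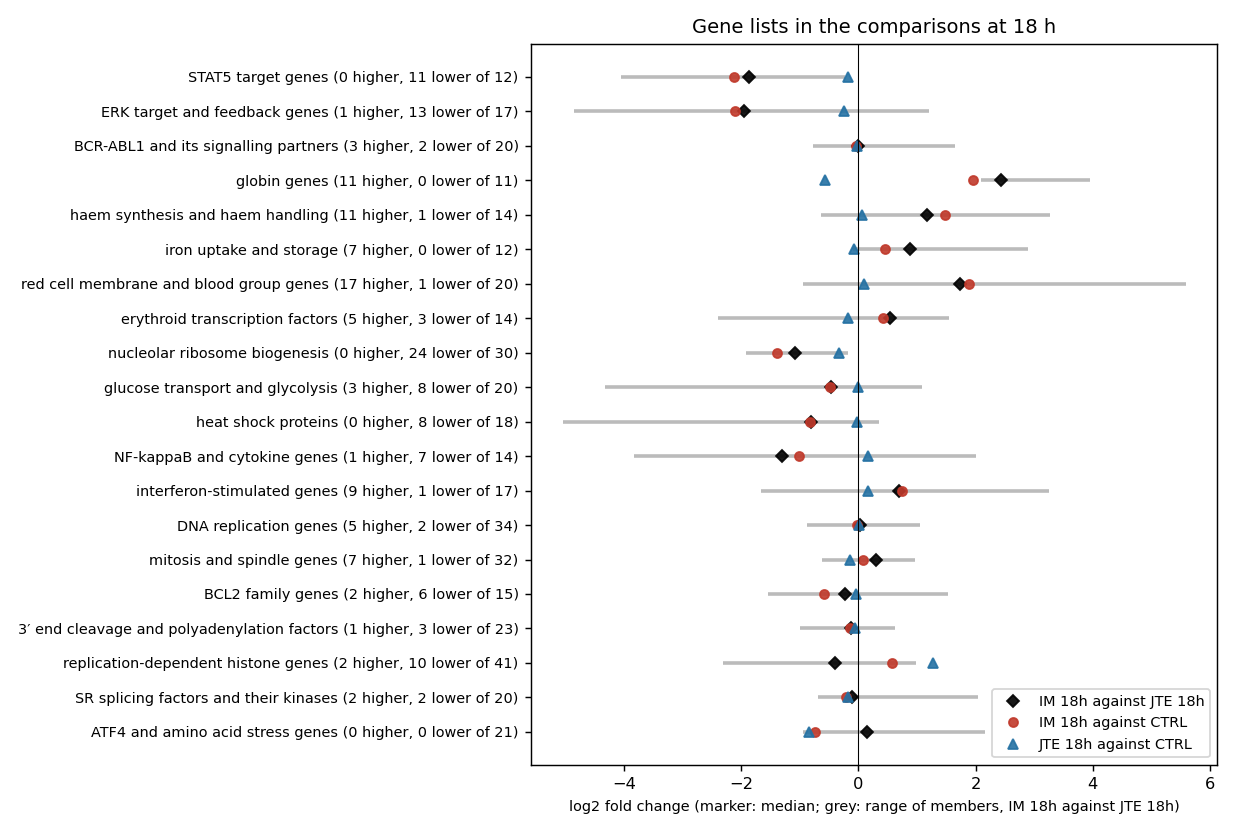
For each gene list, markers give the median log2 fold change of imatinib against JTE-607 (black), imatinib against CTRL (red) and JTE-607 against CTRL (blue) at 18 h, with the range of the members in grey and the counts called in the first contrast beside the name. The globin list has medians of 2.43, 1.96 and -0.56 and the histone list of -0.40, 0.58 and 1.28, and the contrasts share libraries.

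The BCL2 family holds genes that protect from death and genes that promote it. Of 15 tested, 6 were lower and 2 higher, beside 13.6% and 16.7% of all tested genes. BCL2L1, which codes for BCL-XL, stood at 50.7, 43.3 and 41.6 CPM with imatinib, 115, 119 and 124 CPM with JTE-607, and 86.6, 100.2 and 112 CPM in CTRL (log2 fold change -1.40 ± 0.18, edgeR adjusted p 1.64e-06). BAK1, a pore former that promotes death, fell by 1.54 (edgeR adjusted p 1.15e-07). The members that were higher are both BH3-only genes that promote death. BMF stood at 15.8, 13.3 and 11.6 CPM with imatinib, 3.75, 5.47 and 4.97 CPM with JTE-607, and 1.49, 2.51 and 1.45 CPM in CTRL, so both drugs lay above CTRL, and both passed the test against it (log2 fold change 2.89 and 1.37).

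BCL2L11, which codes for BIM, stood at 57.8, 60.4 and 53.8 CPM with imatinib, 20.4, 20.9 and 20.8 CPM with JTE-607, and 30.3, 29.6 and 51.4 CPM in CTRL. The drugs lay on opposite sides of CTRL and differed from each other (log2 fold change 1.47 ± 0.31, edgeR adjusted p 0.000656), while neither passed against CTRL (edgeR adjusted p 0.101 and 0.097).

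Of 34 DNA replication genes 5 were higher and 2 lower (median 0.02), and of 32 mitosis genes 7 were higher and 1 lower (median 0.30). The kinesin KIF20A was higher by 0.96 and the kinetochore motor CENPE by 0.90, while RRM2, a subunit of ribonucleotide reductase, fell by 0.88 (edgeR adjusted p 0.000253, 0.00564 and 6.83e-05). Among the G1 regulators 4 of 22 were higher and 4 lower, beside the 30.3% of all tested genes called in either direction. The inhibitor CDKN1C stood at 29.9, 12.4 and 22.3 CPM with imatinib and 6.28, 6.96 and 7.79 CPM with JTE-607 (log2 fold change 1.62, edgeR adjusted p 0.000184), and the inhibitor CDKN1A at 0.706, 0.684 and 0.605 CPM against 3.90, 3.51 and 3.35 CPM (log2 fold change -2.42, edgeR adjusted p 8.23e-05). Of the MYC and MAX network, 3 of 12 were higher and 2 lower; the antagonist MXD4 was higher by 1.52 and MAX fell by 0.76.

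Interferon-stimulated genes were higher in 9 of 17 and lower in 1 (median 0.70). For this list and the NF-kappaB list, the shares of all tested genes were 16.7% higher and 13.6% lower. STAT2 stood at 147, 119 and 122 CPM with imatinib and 48.5, 44.2 and 48.2 CPM with JTE-607 (log2 fold change 1.46 ± 0.13, edgeR adjusted p 1.92e-08), with CTRL at 44.5, 44.2 and 36.3 CPM. IFI35 had another order, at 7.004, 8.53 and 6.82 CPM with imatinib, 1.37, 1.61 and 0.628 CPM with JTE-607, and 4.85, 4.30 and 5.30 CPM in CTRL, and the value that passed against CTRL was that of JTE-607 (log2 fold change -2.01, edgeR adjusted p 0.000198). IFIT1 held 79 counts over the imatinib and 8 over the JTE-607 libraries, a ratio of 9.89 (95% counting interval 4.78 to 23.7). NF-kappaB and cytokine genes were lower in 7 of 14 and higher in 1 (median -1.30), with ICAM1, an adhesion receptor, down by 1.98 and the inhibitor TNFAIP3 down by 1.43 (edgeR adjusted p 1.91e-05 and 0.00195).

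Of 21 ATF4 and amino acid stress genes 0 were called between the drugs in edgeR, with 1 at an unadjusted p under 0.05 and 0 called by DESeq2. This count depended on the fit. It was 7 higher and 2 lower of 20 tested when only the 2 groups were fitted, 7 higher and 2 lower of 21 with no low-count filter, and 4 higher and 0 lower in a replicate block with CTRL replicates 1 and 2 exchanged. Against CTRL the medians of this list were -0.73 with imatinib and -0.85 with JTE-607. In each 3 were called lower, beside 13.2% and 2.09% of all tested genes. Cholesterol genes had 2 of 21 higher and 1 lower, lysosome genes 4 of 24 higher and 3 lower, and tRNA synthetases 2 of 20 higher and 3 lower, where 30.3% of all tested genes were called in either direction. The lysosome count fell to 2 higher without IM 18h replicate 2, JTE 18h replicate 1 or JTE 18h replicate 3. That of the synthetases was 0 higher without IM 18h replicate 1, and without 1 library it ran from 3 to 5 lower.

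The 3′ end machinery, the target of JTE-607, changed in few members. CPSF3 stood at 158, 165 and 167 CPM with imatinib and 151, 149 and 149 CPM with JTE-607 (log2 fold change 0.13 ± 0.10, edgeR adjusted p 0.294). CES1 had 0 CPM in all 6 libraries and was not tested. Which enzyme cleaves JTE-607 in these cells was not examined. Of 23 cleavage and polyadenylation factors 1 was higher with imatinib and 3 lower (median -0.12), where 30.3% of all tested genes were called in either direction. Against CTRL, 2 were lower with imatinib and 3 higher with JTE-607, beside 13.2% and 3.29% of all tested genes.

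CSTF3, which codes for the CstF subunit CSTF77, stood at 40.1, 42.8 and 44.5 CPM with imatinib, 87.8, 80.5 and 85.8 CPM with JTE-607, and 49.5, 53.1 and 58.4 CPM in CTRL. JTE-607 lay above CTRL and imatinib below it in every library, a 2.00-fold difference (log2 fold change -0.997 ± 0.10, edgeR adjusted p 7.93e-08). RBBP6, a cofactor that activates cleavage, was 1.54-fold lower with imatinib (edgeR adjusted p 0.000354) with JTE-607 above CTRL (log2 fold change 0.65), a difference between the drugs that fell to -0.59 under upper-quartile scaling and -0.60 without IM 18h replicate 3, short of the fold threshold. CLP1, a subunit of cleavage factor II, fell by 0.97 (edgeR adjusted p 3.62e-06), and its log2 fold change of imatinib against CTRL was -1.03. CPSF1 was higher by 0.63 and stood short of the fold threshold in 5 of the alternative fits, among them those without JTE 18h replicate 1 or 3.

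Replication-dependent histone genes were more abundant in poly(A) RNA with JTE-607 than with imatinib at 18 h. Of 41 tested, 10 were lower with imatinib and 2 higher (median -0.40), beside 13.6% and 16.7% of all tested genes. Against CTRL, JTE-607 had 20 higher and 0 lower (median 1.28), where 3.29% of all tested genes were higher. Imatinib had 15 higher and 0 lower against CTRL (median 0.58), where 17.2% were higher. The 6 h libraries did not show the order of the drugs seen at 18 h. There 9 were higher with imatinib and 4 lower (median 0.20), where 13.6% of all tested genes were higher and 10.2% lower. Histone genes then summed to a mean of 1741 CPM with imatinib and 1693 CPM with JTE-607. H4C8 (chromosome 6, 26277609 to 26285638) stood at 32.9, 36.1 and 21.4 CPM with imatinib, 142, 151 and 144 CPM with JTE-607, and 34.5, 31.2 and 28.9 CPM in CTRL. It was 4.83-fold lower with imatinib (log2 fold change -2.27 ± 0.17, edgeR adjusted p 6.18e-10), and only the JTE-607 libraries of these 9 stood apart.

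H2BC18 stood at 13.5, 14.4 and 9.85 CPM with imatinib against 35.5, 37.8 and 35.6 CPM with JTE-607 (log2 fold change -1.53 ± 0.24, edgeR adjusted p 1.89e-05). H4C4 was above CTRL with both drugs, at 1.47, 1.00 and 1.16 CPM with imatinib, 3.09, 3.21 and 3.14 CPM with JTE-607, and 0.386, 0.471 and 0.112 CPM in CTRL (log2 fold change between the drugs -1.38, edgeR adjusted p 0.00223). Summed over all 59 histone genes found in the table, tested or not, the level was 1.27 times as high with JTE-607 as with imatinib. The families differed, from 0.941 for H1 through 1.30 for H3, 1.32 for H2A and 1.33 for H2B to 1.89 for H4, which summed to 382, 424.5 and 397 CPM with JTE-607 and 216, 238 and 184 CPM with imatinib. H4C8 alone, with the levels given above, made up much of that H4 gap. Of the 7 factors that process histone ends, LSM10 fell by 1.03 and LSM11 was higher by 0.95, both subunits of the U7 particle (edgeR adjusted p 1.08e-06 and 5.1e-05).

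**Figure D3:**
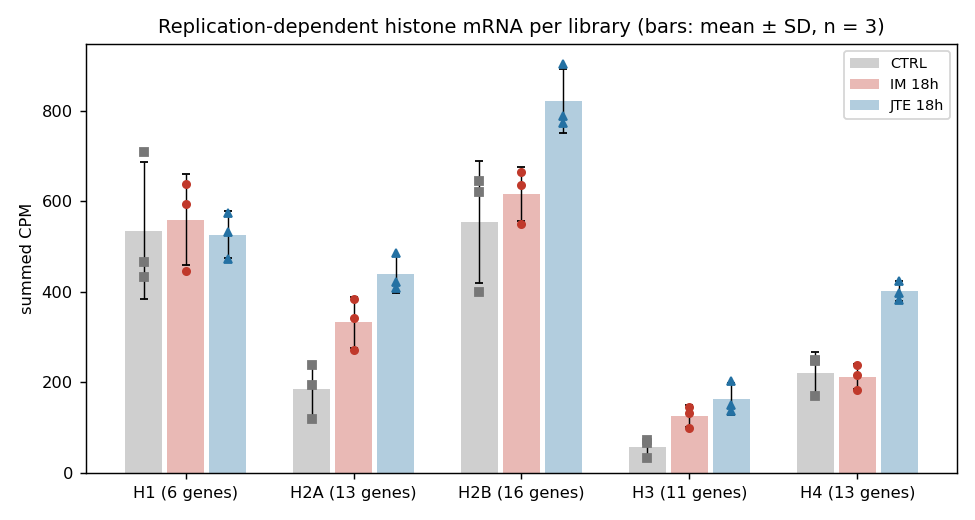
Bars give the mean summed level in CPM of each histone family in CTRL, IM 18h and JTE 18h, with the SD as error bar and 1 point per library. H4, much of whose gap is H4C8, is near 401 CPM with JTE-607 and 213 CPM with imatinib, without overlap, while the H1 libraries of the drugs overlap.

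Genes that lie just past the end of an expressed neighbour went both ways between the drugs at 18 h, with a small difference as a class. A single gene with a large difference, TSPOAP1, is given first. TSPOAP1 (chromosome 17, 58301228 to 58328760, minus strand) begins downstream of MIR142HG, and both lie on that strand. It is not among the 451 genes of the filtered tandem class defined below, and with JTE-607 it stood far above MIR142HG. It stood at 1.74, 2.32 and 2.64 CPM with imatinib, 219, 250.3 and 214 CPM with JTE-607, and 2.54, 1.52 and 2.51 CPM in CTRL. The imatinib libraries overlapped those of CTRL, and the difference between the drugs was 102-fold (log2 fold change -6.67 ± 0.32, edgeR adjusted p 2.99e-12), the largest fall that the naming rule allowed. MIR142HG itself stood at 4.24, 8.42 and 5.78 CPM with imatinib and 11.5, 13.2 and 9.73 CPM with JTE-607 and was not called (edgeR adjusted p 0.0959), though it was with no low-count filter, in the fit of only the 2 groups, and with the replicate number as a block (edgeR adjusted p 0.047, or 0.0195 with CTRL replicates 1 and 2 exchanged).

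Tandem genes were defined as low genes that start within 10000 bases past the end of an expressed gene on the same strand, and isolated genes as low genes with no expressed neighbour. A class that must pass the low-count filter over all libraries holds genes that passed through JTE-607 libraries alone, so the classes were also chosen on CTRL only, as genes of 1 to 10 CPM there, with neighbours of at least 10 CPM. All 183 tandem and 2353 isolated genes so chosen were tested. Of the tandem genes 26.8% were lower with imatinib and 24.0% higher, and of the isolated genes 15.04% were lower and 21.5% higher, with medians of -0.08 and 0.09.

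The tandem score of a library is its mean log2(CPM + 0.5) over tandem genes minus that over isolated genes. With the classes from CTRL it was -0.02, 0.04 and 0.0041 with imatinib, 0.10, 0.13 and 0.11 with JTE-607, and -0.02, -0.14 and 0.02 in CTRL. The JTE-607 libraries lay above all others, while imatinib overlapped CTRL, and the drugs differed by -0.11. Over the 451 tandem genes of 927 that passed the filter with a mean under 10 CPM the difference was -0.22, and over all 927, filtered or not, it was -0.10.

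The 5 tandem genes with the lowest called fold changes, taken from the 451 that passed the filter, had few counts at this depth. Their direction was set by that filter and ranking, so they are a description and no test of the class. RNF225 had 21 counts over the JTE-607 libraries and 0 with imatinib, which makes it at least 2.32-fold higher with JTE-607 against a floor of 3 counts per library. RSPH6A, 91 bases past SYMPK, had 13 counts and 0, at least 1.48-fold. SSH3, 963 bases past ANKRD13D, had 85 counts against 4, a ratio of 21.2 (95% counting interval 7.99 to 79.7). FGF18, past NPM1, had 5 counts and 0, and ENSG00000273375, past FYTTD1, 10 counts and 0. The call of FGF18 was lost in DESeq2 and without any 1 of the imatinib libraries or JTE 18h replicate 2 (adjusted p 0.0563 to 0.123). That of ENSG00000273375 was lost without any 1 of the imatinib libraries or JTE 18h replicate 3 (edgeR adjusted p 0.0659 to 0.0818).

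**Figure D4:**
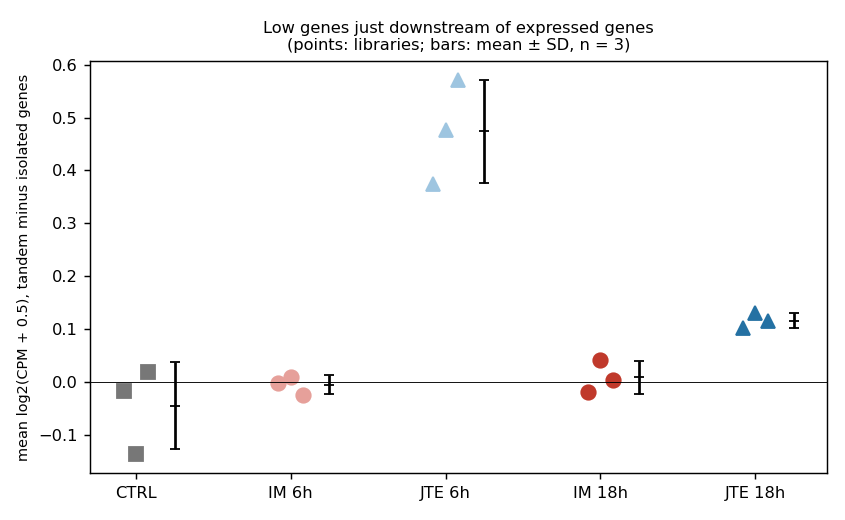
Points give the tandem score of each library in log2 units for CTRL and for both drugs at 6 and 18 h, with classes chosen on CTRL, beside the mean and SD of 3 libraries. JTE-607 reads 0.37 to 0.57 at 6 h and 0.10 to 0.13 at 18 h, and imatinib stays between -0.03 and 0.04.

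SRSF1, a splicing activator, stood at 218, 252 and 261 CPM with imatinib and 368, 360.3 and 369 CPM with JTE-607. The groups did not overlap, but the log2 fold change of -0.58 fell short of the threshold (error ± 0.12, edgeR adjusted p 0.000264); it passed under several other settings, with values of -0.60 to -0.66. Of 20 SR proteins and their kinases 2 were higher and 2 lower, beside the 30.3% of all tested genes called in either direction. SRSF3 and SRSF7 fell by 0.68 and 0.67, each short of the threshold without IM 18h replicate 1 (-0.58), and the kinase CLK4 was higher by 1.18 (edgeR adjusted p 1.29e-06).

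Of 20 hnRNP genes 1 was lower, HNRNPAB, by 1.01 (edgeR adjusted p 1.9e-06). For this and the lists that follow, the share of all tested genes called in either direction was 30.3%. In the SMN complex, which loads snRNAs, 2 of 10 were lower (4 without IM 18h replicate 2) and 1 higher (0 without JTE 18h replicate 2); GEMIN5, which binds snRNA, stood at 60.6, 70.2 and 86.2 CPM with imatinib and 141, 146 and 148 CPM with JTE-607 (log2 fold change -1.01 ± 0.16, edgeR adjusted p 2.23e-05). GEMIN6 fell by 1.18. The helicase cofactor EIF4H was lower by less than the threshold (log2 fold change -0.31, edgeR adjusted p 0.000867). Of 12 genes that take part in chimeric transcripts described by the study, 2 were higher, ZNF577 by 0.87 and CECR7 by 0.62, the latter short of the threshold in 8 of the alternative fits, including those without IM 18h replicate 2 or JTE 18h replicate 1 or 2.

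Whether the gap between the drugs had the same size at 6 h was tested as a difference of differences, in which the times share no library. At 6 h, 13.6% of tested genes were called higher and 10.2% lower with imatinib. The gap differed between 18 and 6 h in 2054 genes, 880 towards imatinib (4.86%) and 1174 towards JTE-607 (6.49%). A replicate block with CTRL replicates 1 and 2 exchanged called 3228. In the STAT5 list 11 of 12 were already lower at 6 h (median -1.54) and 3 were called in the test of time, all towards a deeper fall. SOCS3 was at -3.36 at 6 h and CISH at -2.53, and neither differed by time (edgeR adjusted p 0.285 and 0.956). ETV4 did, at -0.98 at 6 h and -3.37 at 18 h (difference -2.40, edgeR adjusted p 5.23e-06).

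The red cell lists differed by time in some of their members. The globin list had 1 of 11 higher at 6 h (median 0.69), and 5 of 11 were called in the test of time, all towards imatinib. In the membrane list 15 of 20 were higher at 6 h (median 1.07), and the test of time called 9 towards imatinib and 1 towards JTE-607. The iron list had 5 of 12 towards imatinib and 0 towards JTE-607, the haem list 3 of 14 and 1, and the transcription factors 1 of 14 and 2. TFRC went from -0.10 at 6 h to 1.30 (difference 1.40, edgeR adjusted p 0.00122). SLC4A1 was already 4.71 higher at 6 h and did not differ by time (edgeR adjusted p 0.756).

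For genes past the end of a neighbour the gap was wider at 6 h. The tandem score with classes from CTRL differed by -0.48 between the drugs at 6 h and by -0.11 at 18 h. Of those 183 tandem genes 31.7% were lower with imatinib at 6 h, against 6.93% of the isolated genes. The test of time called 20.8% of them towards imatinib and 9.84% towards JTE-607, against 3.61% and 7.22% of the isolated genes. Among the 5 genes with the largest shift towards imatinib, 3 are tandem genes by the filtered definition, which held 451 of the 18095 tested genes. That definition uses all libraries, those of JTE-607 at 6 h included, so this count is a description and no test. AOC2 starts 842 bases past the proteasome activator gene PSME3, and AOC3 follows it. AOC2 had a mean of 22.3 CPM with JTE-607 at 6 h and 2.81 CPM at 18 h, against 0.745 and 0.987 CPM with imatinib (difference 3.42, edgeR adjusted p 0.000479). AOC3 had means of 25.2 and 0.755 CPM with JTE-607, against 0.268 and 0.179 CPM with imatinib (difference 4.45, edgeR adjusted p 0.0175), and its adjusted p was 0.0517 and 0.0706 when IM 18h replicates 1 and 2 were left out in turn.

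ADCY10P1, past NFYA, had a difference of 3.58, and ZDHHC11 and CFAP70, which are not in the tandem class, of 4.18 and 3.24 (edgeR adjusted p 1.5e-05, 0.0107 and 0.000312). TSPOAP1, also outside that class, stood at -7.03 at 6 h and -6.67 at 18 h (edgeR adjusted p of the difference 0.609).

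Towards JTE-607, the largest shifts were in TBX10, CFAP161, IGFBP4, SCG3 and PRR29. TBX10, a T-box factor, stood at 0.760, 1.26 and 0.935 CPM with imatinib at 18 h and 12.6, 13.2 and 16.3 CPM with JTE-607, with means of 1.49 and 0.901 CPM at 6 h (difference -4.56, edgeR adjusted p 8.28e-06). SCG3, a secretory granule protein, stood at 11.8, 12.2 and 12.4 CPM with imatinib and 162, 261 and 163 CPM with JTE-607 at 18 h, and 64.9, 60.8 and 46.2 CPM in CTRL. The drugs lay on opposite sides of CTRL, and the difference by time was -3.42 (edgeR adjusted p 5.23e-06). IGFBP4, which binds insulin-like growth factors, and CFAP161 differed by -3.44 and -4.00 (edgeR adjusted p 3.47e-05 and 0.000437). PRR29 differed by -3.30 (edgeR adjusted p 0.0238), a call lost without IM 18h replicate 1 or 2, IM 6h replicate 3 or JTE 6h replicate 1.

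**Figure D5:**
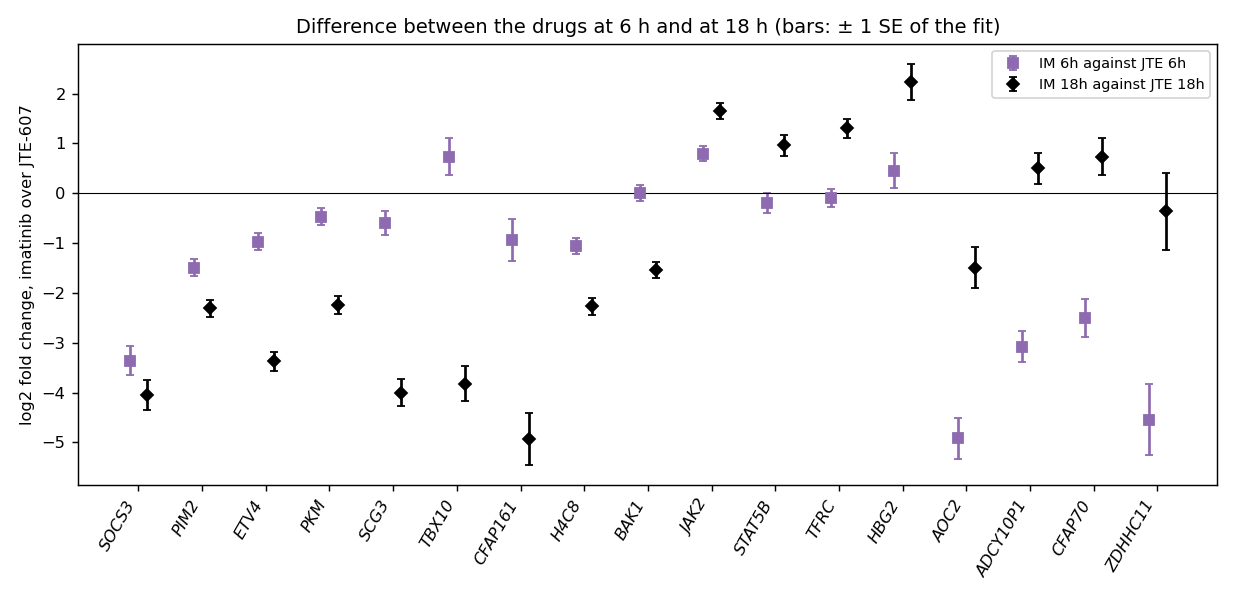
For each gene the log2 fold change of imatinib over JTE-607 is given at 6 h (squares) and at 18 h (diamonds) with the SE of the fit. SOCS3 goes from -3.36 to -4.05, TFRC goes from -0.10 to 1.30, and AOC2 goes from -4.92 to -1.50.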

How the data were processed

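The authors trimmed and deduplicated read pairs with fastp (no molecular identifiers are stated), aligned them to hg38 with STAR, keeping unique alignments, and counted exonic pairs per gene with featureCounts. No strand setting is stated. The submitters' processing notes name GRCh38.p14, and the annotation release is not given in the sources used here. The deposited values are raw counts per gene. The nuclear table was not used here.

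All 27 mRNA libraries were fitted in edgeR 4.0.16 (R 4.3.3) with TMM scaling, filterByExpr and robust quasi-likelihood tests, without a replicate block. Standard errors (±) are the log2 fold change divided by the square root of F. The difference between the drugs at 18 h was also tested against that at 6 h as an interaction contrast. A CPM value is a count divided by the TMM-scaled library size of tested genes and rescaled to a common size. DESeq2 1.42.0, other scalings, filters, sample sets and leaving out each library were alternatives. Counting intervals cover counting error only. Replicates are biological by the study's account, and p-values measure the spread between cultures of 1 line.

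The study's table of read totals numbers CTRL replicates 1 and 2 the other way round from the count columns. The columns' numbers were kept, which leaves group means and unblocked tests as they are, and a block with these numbers exchanged was fitted as well. With it every same-numbered pair of imatinib at 18 h and CTRL deviated together by over 0.1.

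Symbols and positions came from GENCODE 44 and RefSeq promoters from GRCh38.p14. Tandem genes began within 10000 bases past an expressed gene (at least 10 CPM) on the same strand and stood below that level, in the mean of all libraries or of CTRL alone. Their values were compared as log2(CPM + 0.5).

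Named genes were the 10 largest called changes in each direction with a mean of at least 10 CPM and no overlap, up to 6 called members per list, a few genes named whatever their call, the 5 largest changes in each direction between 6 h and 18 h, and the 5 lowest tandem genes. KEL, DUSP1, ACHE, ALAS1, FTH1, FTL, EPCAM and MS4A1 lie outside that rule and were chosen after their values were seen. Some genes that the rule picks are not reported here. The genes, lists and tests were chosen with earlier results of these data known.

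Counts were simulated for imatinib against JTE-607 at 18 h over 18095 genes. In these, edgeR recovered 7 of 50 genes changed 1.5-fold, 42 of 50 changed 2-fold and 50 of 50 at each of 4-fold and 8-fold. There were 12 false calls. These numbers belong to the simulation only. How many genes the fit missed or falsely called in the measured libraries was not tested. Every pair of replicates differed by more than sampling noise, so none was counted as 1 library (chi-square per gene 2.23 to 34.8).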

Additional observations from a re-analysis of the deposited data

Results flagged for a closer look

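The values here are differences on the log2 scale between the contrast of imatinib with JTE-607 at 18 h and the same contrast at 6 h. A positive value means that the contrast was further towards imatinib at 18 h. The interaction was tested in edgeR's quasi-likelihood fit with Benjamini-Hochberg adjustment and called at the same thresholds, and 2054 of 18095 tested genes passed. Groups of 3 are too small for a test of single outlying samples.

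Red cell genes moved towards imatinib between the times: HBA2 by 2.18, HBG1 by 1.90, HBG2 by 1.78, ADD2 by 0.87 and FECH by 0.87, with the iron genes TFRC by 1.40 and SLC25A37 by 1.23. ACHE (-2.04), ALAS1 (-0.67) and GATA2 (-0.70) moved the other way, as did CD33 (-1.95) of the granulocyte list. Among kinase targets and partners, PIM2 (-0.81), CCND2 (-0.61), ID1 (-1.57) and ETV4 (-2.40) moved towards JTE-607, and DUSP1 (0.71), JAK2 (0.86) and STAT5B (1.16) towards imatinib.

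Glycolysis genes moved towards JTE-607, with SLC2A3 at -2.13, PKM at -1.77 and LDHA at -0.82, as did the apoptosis genes BAK1 (-1.55) and BMF (-1.58) and the nucleotide reductase gene RRM2 (-1.45). IFI35 (2.07) moved towards imatinib. In RNA processing, RBBP6 (0.71) and LSM11 (0.86) had positive values, and LSM10 (-0.69), SRSF1 (-0.69), H4C8 (-1.22) and H2BC18 (-1.07) negative ones.

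Of the genes with the largest contrasts at 18 h, SGMS1-AS1 (2.05) moved towards imatinib, and IL10RA (-1.54), TMEM273 (-2.39), APOL4 (-2.33), CFAP161 (-4.00) and IL16 (-2.75) towards JTE-607. The largest changes between the times were those of AOC3 (4.45), ZDHHC11 (4.18), ADCY10P1 (3.58), AOC2 (3.42) and CFAP70 (3.24) in one direction and of TBX10 (-4.56), IGFBP4 (-3.44), SCG3 (-3.42) and PRR29 (-3.30) in the other, beside CFAP161.

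Of these 46 named genes, 26 passed in all 12 fits that left out 1 library of the 4 groups. The other 20 were lost in at least 1 of them: ADD2, ALAS1, AOC3, CCND2, DUSP1, FECH, GATA2, H2BC18, HBA2, HBG1, HBG2, ID1, IL10RA, LDHA, LSM11, PIM2, PRR29, SLC25A37, SLC2A3 and SRSF1. Losses were most frequent without IM 18h replicate 1 (17 genes), IM 6h replicate 1 (13) and JTE 6h replicate 1 (12), and each of the other 9 libraries cost between 2 and 11. H2BC18 was lost in 10 of the fits (edgeR adjusted p 0.0506 to 0.0981), LDHA in 9 (0.0619 to 0.153) and SLC25A37 in 9 (0.0544 to 0.126). ALAS1 and SRSF1 were each lost in 1 fit, on the size of the change. CCND2 also fell short of the fold threshold (-0.60) in the replicate block with CTRL replicates 1 and 2 exchanged, a fit that called 3228 genes in all.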

How the results depend on the processing

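The number of genes called between imatinib and JTE-607 at 18 h, 5474, was 5425 to 5932 under other scalings, filters, sample sets, DESeq2 and a replicate block, 8001 with no fold threshold, and 4545 to 5398 without 1 of the 6 libraries. Against CTRL, imatinib called 5513 genes (4580 to 5515 without 1 library). JTE-607 against CTRL called 975, 1663 with no fold threshold, and 577 to 874 without 1 library, where JTE 18h replicates 1 and 3 gave 629 and 577. The interaction with time called 2054, and 1423 to 2504 without 1 library. The tandem difference of -0.22 was -0.18 with a distance of 5000 bases -0.35 as log2(CPM + 0.1), -0.11 with classes chosen on CTRL alone, -0.10 over all tandem genes with no low-count filter (both chosen after seeing the data), and -0.23 to -0.20 without 1 library. The median of the megakaryocyte list, -0.18, turned positive when only the groups compared were fitted (0.27), without IM 18h replicate 2 (0.0067) and without JTE 18h replicate 1 (0.14), with a range of -0.19 to 0.14 over the fits without 1 library. Of the medians of gene lists under the alternatives, 406 moved by less than the replicate spread, 67 by more with the same sign, and 3 reversed. Of the values of named genes for imatinib against JTE-607 at 18 h, 1855 kept their side of the threshold, 42 lost the call and 19 gained it. The cause of these changes was not tested. With the replicate number as a block, the counts were 5932, 5948 for imatinib against CTRL, 1444 for JTE-607 against CTRL and 2952 for the interaction. With CTRL replicates 1 and 2 exchanged, an alternative chosen after seeing the data, they were 6029, 6039, 1575 and 3228. Same-numbered libraries of the 18 h groups had correlated deviations of -0.0804, 0.270 and 0.215, and 4 of 6 libraries correlated best with their own number, so the number was not taken as pairing them, although at 6 h the values were 0.424, 0.578 and 0.407. After the exchange those of imatinib at 18 h with CTRL were 0.453, 0.333 and 0.122 and those of JTE-607 with CTRL 0.103, 0.241 and 0.0545. Depth of 16439848 to 18460064 counts limits the tandem genes, many of which hold few counts.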
